A study of Mus musculus with 36 samples.

Results

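Prostaglandin synthesis, reception and breakdown were followed through 9 genes, Ptgs1, Ptgs2, Ptges, Ptgds, Ptger1, Ptger2, Ptger3, Ptger4 and Hpgd, which were picked by name from the 55421 genes of a table of expected counts. Each symbol belonged to a single Ensembl identifier, and 8 of the 9 genes passed the filter on low counts that left 19478 genes for testing. Ptger2, which did not pass, had between 0 and 11 counts per sample.

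The RNA came from slices of the right hippocampus of 18 mice. Wild-type (WT) C57BL/6 mice were compared with T41B mice, the Line 41 amyloid model, in which a Thy1 cassette drives human APP bearing the London and Swedish changes in neurons. Mice of both genotypes received vehicle (VEH) or BD10-2, a small molecule directed at the neurotrophin receptors TrkB and TrkC, by gavage for 3 months, starting at 13 and ending at 16 months old. For each mouse, as far as available, 1 slice was given theta-burst stimulation (STIM), which consisted of 3 trains of 10 bursts, each burst holding 4 stimuli at 100 Hz, with bursts 200 ms apart. Another slice went through a sham procedure of equal duration (noSTIM), and slices were frozen directly afterwards. All groups, sham included, therefore consist of cut and handled slices of aged mice. After libraries with equal labels had been added together, the VEH groups held 4 mice each, the WT BD10-2 groups 3 mice each and the T41B BD10-2 groups 5 mice each, and 14 mice gave both slices.

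The 36 libraries held 11597555 to 28125842 counts, with a median of 18082415. Levels are CPM, the count scaled to the adjusted library size. Thy1, part of the transgene cassette, was 253 to 403 CPM in the 16 WT libraries and 918 to 2504 CPM in the 20 from T41B mice, so the genotypes did not overlap. The lowest of the T41B libraries was 1 of the pair labelled as stimulated slices of Mouse1592. The 6 markers listed for hippocampal neurons (Neurod6, Prox1, Camk2a, Snap25, Rbfox3 and Syt1) summed to between 4260 and 6572 CPM in every sample. The mouse named in the labels is the replicate.

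Prostaglandins are made when phospholipases release arachidonic acid from membranes and a cyclooxygenase converts it to the common precursor prostaglandin H2. Ptgs1 encodes the constitutive cyclooxygenase COX-1, which microglia express in the brain, and Ptgs2 encodes the inducible COX-2, which is present in excitatory neurons and behaves there as an activity-regulated early gene. Ptges (microsomal prostaglandin E synthase) and Ptgds (lipocalin-type prostaglandin D synthase) make prostaglandin E2 and D2 from that precursor, Ptger1 to Ptger4 encode the prostaglandin E2 receptors EP1 to EP4, and Hpgd encodes the dehydrogenase that begins prostaglandin breakdown.

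Per kilobase of merged exons, the genes covered a wide range. Ptgds averaged 52.1 CPM per kb over the 32 samples and Ptgs2 averaged 36.0 CPM per kb, followed by Ptges at 4.40 and Ptgs1 at 2.54. Hpgd, at 0.991 CPM per kb, and Ptger4, at 0.863, were lower again. Ptger1 averaged 0.325 CPM per kb, Ptger3 averaged 0.246 and Ptger2 averaged 0.0524. These means pool sham and stimulated slices, and the order differed between groups. In WT VEH sham slices Ptgs1, at 2.67 CPM per kb, was above Ptges, at 0.768. In T41B VEH stimulated slices Ptgs2, at 87.9 CPM per kb, was above Ptgds, at 42.1, and Ptger4, at 1.05, was above Hpgd, at 0.781. The median count per sample was 33 for Ptger1, 26 for Hpgd, 21 for Ptger3 and 6 for Ptger2, against 110 for Ptger4.

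The first question was how theta-burst stimulation changed each gene. Both Ptgs2 and Ptges rose and Ptgs1 fell in all 4 combinations of genotype and treatment, by edgeR's quasi-likelihood test with Benjamini-Hochberg adjustment over all tested genes and a threshold of 0.05. Of the 8 tested members, 2 were called higher in each of the 4 comparisons. Among all tested genes, 8.21% were called higher in WT VEH slices, 11.7% in T41B VEH, 6.29% in WT BD10-2 and 13.3% in T41B BD10-2. The members called lower numbered 1 in each of the VEH comparisons (Ptgs1) and 2 in each of the BD10-2 comparisons (Ptgs1 and Ptger3), where 4.1%, 9.83%, 2.58% and 9.52% of all genes were called lower, in the same order.

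Ptgs2 (ENSMUSG00000032487, GRCm38 chromosome 1, 150100031 to 150108227, plus strand) had the largest response of the members in T41B slices, while Ptges had the larger log2 fold change in WT slices. In sham slices of WT VEH mice it lay at 23.7, 35.1, 51.1 and 26.4 CPM, and in stimulated slices of the same mice at 132, 128, 91.6 and 88.2 CPM. In sham slices of T41B VEH mice it lay at 32, 27.4, 17.3 and 47.3 CPM, and in stimulated slices at 326, 616, 372 and 296 CPM. Every stimulated slice of either genotype was above every sham slice, and the stimulated T41B VEH slices were all above the stimulated WT VEH slices. With BD10-2, WT sham slices held 34.2, 36.5 and 25.3 CPM and WT stimulated slices held 109.5, 161 and 82.5 CPM. T41B sham slices with BD10-2 held 26.5, 34.9, 23.7, 25.98 and 23.04 CPM, and T41B stimulated slices held 709, 646, 419, 450 and 155.5 CPM. The last of these values, from Mouse1592, was the only one of the 9 stimulated T41B values that fell within the range of the stimulated WT slices. Its libraries with equal labels held 90.7 and 210 CPM, the second above every stimulated WT slice.

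The rise of Ptgs2 was 3.22-fold in WT VEH slices (log2 fold change 1.69, edgeR adjusted p = 0.00086, SE 0.34) and 13.0-fold in T41B VEH slices (95% interval of the log2 fold change 2.99 to 4.41, edgeR adjusted p = 9.54e-09, SE 0.36). With BD10-2 it was 3.66-fold in WT slices (log2 fold change 1.87, edgeR adjusted p = 0.00172, SE 0.39) and 17.7-fold in T41B slices (4.15, edgeR adjusted p = 9.44e-11, SE 0.33). Within mice, Ptgs2 was higher in the stimulated slice in 14 of 14, by 1.79-fold to 5.56-fold in 6 WT mice and by 6.26-fold to 27.3-fold in 8 T41B mice. These ranges of WT and T41B mice did not overlap. The stimulated value of Mouse1592 adds libraries of 90.7 and 210 CPM, beside 23.04 CPM in its sham slice. The first library alone would place its rise within the WT range. Within single batches, as the labels name them, the difference on the log2(CPM + 1) scale was 0.83 to 2.13 in 4 batches with WT mice and 2.62 to 4.51 in 6 batches with T41B mice.

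The promoter is printed for the genes that rose with stimulation and for Ptgs1, which fell, since these were the 3 members called in all 4 stimulation comparisons. The windows are from RefSeq on build GRCm38.p6, which the submitters' processing notes also name. Each run is the 250 bases before the RefSeq start site, 5′ to 3′ on the gene's strand, and capitals mark matches to any of 8 motifs searched on both strands. The Ptgs2 window is chr1:150099781-150100030 (plus strand), the Ptges window chr2:30903298-30903547 (minus strand) and the Ptgs1 window chr2:36230176-36230425 (plus strand).
Ptgs2: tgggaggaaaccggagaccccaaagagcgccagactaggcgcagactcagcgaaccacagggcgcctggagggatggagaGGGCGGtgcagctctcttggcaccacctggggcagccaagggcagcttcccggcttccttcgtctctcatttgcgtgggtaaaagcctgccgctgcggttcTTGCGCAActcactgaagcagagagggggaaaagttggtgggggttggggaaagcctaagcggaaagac
Ptges: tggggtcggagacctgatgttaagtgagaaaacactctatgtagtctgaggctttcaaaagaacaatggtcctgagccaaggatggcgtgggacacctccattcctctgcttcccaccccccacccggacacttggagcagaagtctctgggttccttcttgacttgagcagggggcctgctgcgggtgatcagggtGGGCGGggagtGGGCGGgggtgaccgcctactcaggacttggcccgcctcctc
Ptgs1: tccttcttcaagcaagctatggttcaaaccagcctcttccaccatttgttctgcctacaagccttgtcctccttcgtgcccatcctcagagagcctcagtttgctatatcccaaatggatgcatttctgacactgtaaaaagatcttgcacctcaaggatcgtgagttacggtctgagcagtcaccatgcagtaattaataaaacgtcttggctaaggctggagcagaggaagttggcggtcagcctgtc
The first 30 bases from the Ptgs2 start site, chr1:150100031-150100060, hold a further match.
Ptgs2 from the start site: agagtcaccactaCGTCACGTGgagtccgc

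The motifs were the TATA element TATAAA, the cyclic AMP response element TGACGTCA and its shorter core TGACG, the AP-1 site TGANTCA, the C/EBP site TTGCNNAA, the E-box CACGTG, the GC box GGGCGG, and the NF-kappaB consensus. In the window from 250 bases before to 50 bases after the start, Ptgs2 held a GC box at position -170, a C/EBP match at -69, and a TGACG core (reverse strand) at 14 that overlaps an E-box at 17, counted from the start site. Among the 32851 RefSeq promoter windows of this length, 35.7% held a GC box, 10.8% a C/EBP match, 20.8% the TGACG core and 7.15% the E-box. The Ptges window held GC boxes at -53 and -42 and no match to the other motifs, and the Ptgs1 window held no match to any of the 8. The window used for Ptges belongs to a start site inside the gene as GENCODE annotates it, whose 5′ end is at 30929863 on chromosome 2. Windows were given for 8 of the 9 members, and a match to these letters is a description of sequence only.

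**Figure D1:**
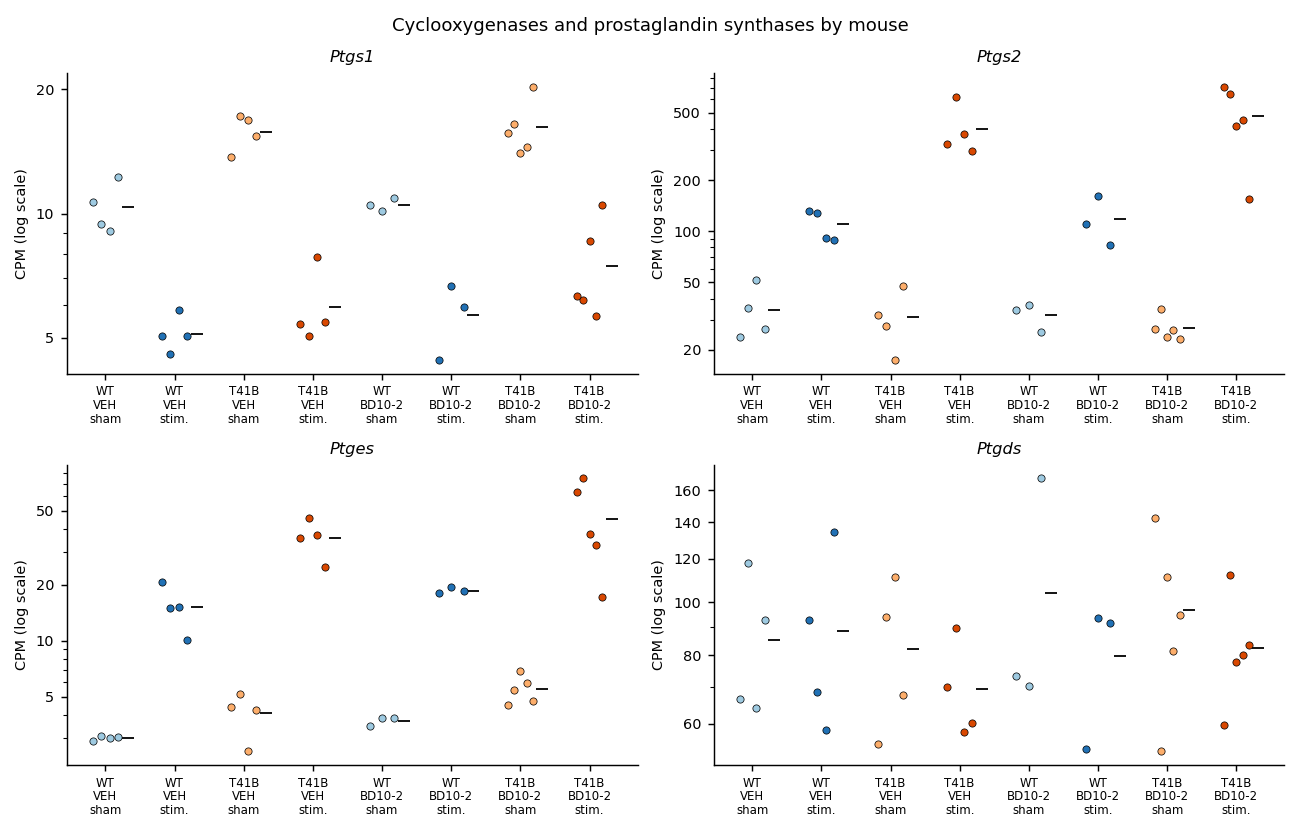
Level of the cyclooxygenases Ptgs1 and Ptgs2 and the synthases Ptges and Ptgds in CPM on a log axis, with a point for each mouse in each of the 8 groups and a bar for the group mean. Stimulated slices lie above sham slices for Ptgs2 and Ptges and below them for Ptgs1 of the same group, while the groups overlap for Ptgds, whose axis is narrower.

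Ptges (ENSMUSG00000050737, GRCm38 chromosome 2, 30889471 to 30929863, minus strand) rose with Ptgs2. In WT VEH mice it lay between 2.90 and 3.10 CPM in the 4 sham slices and at 20.8, 15.04, 15.2 and 10.1 CPM in the stimulated slices. In T41B VEH mice the sham slices held 4.44, 5.18, 2.55 and 4.25 CPM and the stimulated slices 35.9, 45.6, 37.0 and 24.9 CPM. With BD10-2, sham slices held 3.48, 3.86 and 3.84 CPM in WT mice and 4.51, 5.44, 6.93, 5.94 and 4.77 CPM in T41B mice. Levels thus stayed under 10 CPM in every sham slice. In stimulated slices of BD10-2 mice Ptges reached 18.04, 19.4 and 18.4 CPM in WT mice and 63.4, 74.85, 37.6, 32.8 and 17.3 CPM in T41B mice, the last again from Mouse1592. Stimulated and sham slices did not overlap in any of the 4 combinations.

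The rise of Ptges was 5.07-fold in WT VEH slices (log2 fold change 2.34, edgeR adjusted p = 4.95e-06, SE 0.32) and 8.72-fold in T41B VEH slices (3.12, edgeR adjusted p = 1.08e-08, SE 0.31). With BD10-2 it was 5.02-fold in WT slices (2.33, edgeR adjusted p = 2.8e-05, SE 0.35) and 8.25-fold in T41B slices (3.04, edgeR adjusted p = 6.38e-10, SE 0.27). It was higher in the stimulated slice of 14 of 14 mice, by 3.31-fold to 14.5-fold. Within single batches the difference was 1.46 to 2.22 in WT mice (4 batches) and 1.67 to 3.29 in T41B mice (6 batches) on the log2(CPM + 1) scale.

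Ptgs1 (ENSMUSG00000047250, GRCm38 chromosome 2, 36230426 to 36252272, plus strand), the other cyclooxygenase, moved the opposite way. WT VEH sham slices held 10.7, 9.44, 9.05 and 12.3 CPM and WT VEH stimulated slices 5.05, 4.57, 5.83 and 5.04 CPM. T41B VEH sham slices held 13.7, 17.3, 16.9 and 15.4 CPM and T41B VEH stimulated slices 5.41, 5.05, 7.87 and 5.47 CPM. With BD10-2, Ptgs1 was 10.1 to 10.9 CPM in WT sham slices and 4.42 to 6.70 CPM in WT stimulated slices, and 14.04 to 20.3 CPM against 5.65 to 10.5 CPM in T41B mice. The sham and stimulated values did not overlap in any of the 4 combinations. The log2 fold change was -1.01 in WT VEH slices (edgeR adjusted p = 0.000123, SE 0.17) and -1.41 in T41B VEH slices (edgeR adjusted p = 3.93e-07, SE 0.17). With BD10-2 it was -0.89 in WT slices (edgeR adjusted p = 0.00273, SE 0.20) and -1.11 in T41B slices (edgeR adjusted p = 1.29e-06, SE 0.15). Ptgs1 was lower in the stimulated slice in 14 of 14 mice, by 1.51-fold to 3.42-fold. Within batches the difference was -1.14 to -0.56 in 4 batches with WT mice and -1.34 to -0.89 in 6 batches with T41B mice on the log2(CPM + 1) scale. The WT BD10-2 call was lost without Mouse1565 (log2 fold change -0.75, edgeR adjusted p = 0.0729).

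Markers of microglia fell beside Ptgs1. The 5 markers used here, Cx3cr1, P2ry12, Tmem119, Csf1r and C1qa, were all called lower in stimulated slices in 3 of the 4 combinations, and 4 of 5 in T41B BD10-2 slices, where C1qa was not called. Their summed level was 163 to 215.5 CPM in WT VEH sham slices and 55.0 to 96.8 CPM in WT VEH stimulated slices, and 318 to 591 CPM against 142 to 197 CPM in T41B VEH mice. In T41B BD10-2 mice the sum was 407 to 570 CPM in sham slices and 201 to 269.7 CPM in stimulated slices. In bulk tissue, fewer cells of a type and less RNA per cell cannot be told apart. WT VEH sham slices and T41B VEH stimulated slices had overlapping marker sums (163 to 215.5 and 142 to 197 CPM). Ptgs1 was 9.05 to 12.3 CPM in the former and 5.05 to 7.87 CPM in the latter. These groups differ in both genotype and stimulation, and the part of the microglial markers in the fall of Ptgs1 was not tested. The 6 markers of infiltrating myeloid cells were near 0, with a sum of at most 1.38 CPM in any sample.

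Markers of other cell types also moved with stimulation, beside Ptgs2 and Ptges. Of 5 endothelial markers, Cdh5 was called higher in all 4 combinations and Pecam1 in both T41B combinations, while Ly6c1 was called lower in all but T41B VEH slices. Their sum was 94.0 to 117 CPM in WT VEH sham and 25.3 to 221 CPM in WT VEH stimulated slices, and 39.1 to 113 CPM against 128 to 237 CPM in T41B VEH mice. With BD10-2 it was 88.9 to 113 CPM in sham and 117 to 187 CPM in stimulated slices of WT mice, and 76.9 to 162 CPM against 102 to 235 CPM in T41B mice. Of 5 astrocyte markers, 3 were called higher in WT VEH, T41B VEH and T41B BD10-2 slices, Aqp4 and Gja1 each time, and 0 in WT BD10-2 slices. The astrocyte sum was 1003 to 1212 CPM in WT VEH sham, 1452 to 1785 in WT VEH stimulated, 2095 to 3085 in T41B VEH sham and 2820 to 3493 in T41B VEH stimulated slices. With BD10-2 the sums of the same 4 kinds of slice were 1109 to 1322, 1371 to 1599, 2385 to 3245 and 2954 to 4816 CPM. Aqp4 and Gfap were also called higher in T41B mice in all 4 genotype comparisons, and all 5 astrocyte markers were in BD10-2 stimulated slices. All 6 choroid plexus markers were called higher in WT VEH stimulated slices, and 0 in the other 3 combinations. The stimulated slices of Mouse1509 and Mouse1513, whose choroid plexus sums stood apart at 1200 and 982 CPM, held 132 and 128 CPM of Ptgs2, above the 91.6 and 88.2 CPM of Mouse1522 and Mouse1524. Without Mouse1509 the log2 fold change of Ptgs2 in WT VEH slices was 1.45 (edgeR adjusted p = 0.0221), and without Mouse1513 it was 1.62 (edgeR adjusted p = 0.0104). The part of these markers in the values of Ptgs2 and Ptges was not tested.

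**Figure D2:**
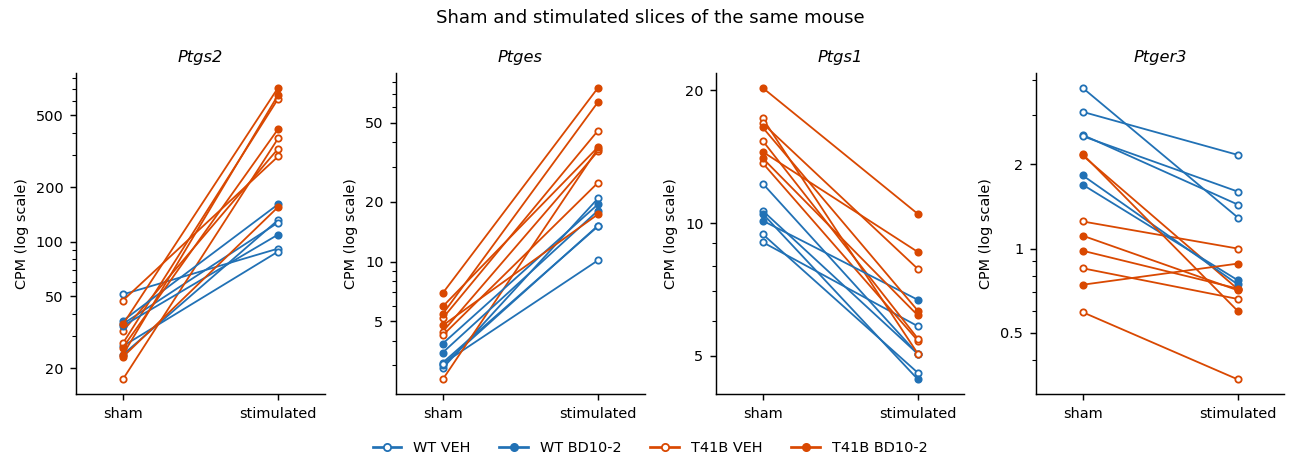
CPM on a log axis in the sham and the stimulated slice of each of the 14 mice with both, joined by a line (blue, WT; orange, T41B; open, VEH; filled, BD10-2). Ptgs2 and Ptges are higher and Ptgs1 lower in the stimulated slice in 14 of 14 mice, and Ptger3 is lower in 13 of 14.

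The balance of the cyclooxygenase transcripts shifted. Per kilobase of exon, Ptgs2 was 2.91 ± 1.39 times Ptgs1 in WT VEH sham slices (SD, n = 4) and 18.5 ± 5.17 times in stimulated ones (SD, n = 4). In T41B VEH mice the ratio was 1.70 ± 0.756 in sham slices (SD, n = 4) and 60.2 ± 29.2 in stimulated slices (SD, n = 4). With BD10-2 the ratio went from 2.59 ± 0.5683 to 17.7 ± 5.16 in WT mice (SD, n = 3) and from 1.43 ± 0.299 to 61.1 ± 34.3 in T41B mice (SD, n = 5). This ratio describes the same values as the tests above and carries no test of its own.

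Ptgds (ENSMUSG00000015090), the prostaglandin D synthase of oligodendrocytes, choroid plexus and meninges, was not called in any comparison. It lay between 53.4 and 168 CPM over the 32 samples, and the 8 group means ran from 69.5 ± 14.5 CPM (T41B VEH stimulated; SD, n = 4) to 104 ± 55.7 CPM (WT BD10-2 sham; SD, n = 3). All neighbouring groups in the order of means overlapped. The log2 fold change with stimulation was 0.05 in WT VEH slices, with a 95% interval from -0.54 to 0.65, and -0.24 in T41B VEH slices, with an interval from -0.83 to 0.35. Markers of choroid plexus differed between libraries: the sum of 6 markers was 1200 and 982 CPM in 2 WT VEH stimulated slices (Mouse1509 and Mouse1513) and 20.7 and 13.5 CPM in those of Mouse1522 and Mouse1524, and all 6 were called higher with stimulation in WT VEH mice. In those 4 slices Ptgds was 92.9, 68.5, 58.4 and 134 CPM, in the same order of mice. In T41B VEH sham slices the marker sum was 22.1, 131, 525.6 and 16.4 CPM and Ptgds was 55.2, 94.1, 111.3 and 67.5 CPM (Mouse1510, Mouse1551, Mouse1553 and Mouse1579). In the WT VEH stimulated slices the sum of 6 oligodendrocyte markers was 5632, 6207, 4507 and 7847 CPM, in the order above. In the T41B VEH sham slices it was 4532, 8384, 9553 and 5487 CPM. The sum of 6 meningeal fibroblast markers was 77.6, 61.1, 40.1 and 9.77 CPM in the former. In the latter it was 42.25, 20.04, 36.67 and 29.45 CPM. The part of these markers in the level of Ptgds was not tested.

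Among the receptors, Ptger3 was called lower after stimulation in the BD10-2 comparisons, and Ptger1 and Ptger4 were not called. Ptger3 (ENSMUSG00000040016, GRCm38 chromosome 3, 157566892 to 157645888, plus strand) encodes EP3, which lowers cyclic AMP. In WT VEH mice it lay at 2.55, 2.52, 3.08 and 3.75 CPM in sham slices and 1.44, 1.598, 2.16 and 1.29 CPM in stimulated slices. In WT BD10-2 mice it lay at 1.69, 1.83 and 2.81 CPM in sham slices and 0.770, 0.744 and 1.03 CPM in stimulated slices. In both treatments of WT mice the sham and stimulated values did not overlap. T41B slices overlapped, with 0.592 to 2.15 CPM in VEH sham slices, 0.341 to 0.9997 in VEH stimulated slices, 0.742 to 2.18 in BD10-2 sham slices and 0.440 to 0.884 in BD10-2 stimulated slices.

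The log2 fold change of Ptger3 was -1.27 in WT BD10-2 slices (edgeR adjusted p = 0.0307, SE 0.38) and -0.98 in T41B BD10-2 slices (edgeR adjusted p = 0.023, SE 0.32). It was -0.87 in WT VEH slices (edgeR adjusted p = 0.0675, SE 0.31) and -0.81 in T41B VEH slices (edgeR adjusted p = 0.111, SE 0.36), neither of which passed. With the mouse as a block, which uses the pairing of slices, the call moved: the WT VEH fall passed (edgeR adjusted p = 0.0328), and the falls with BD10-2 did not (0.101 in WT and 0.117 in T41B mice). The WT VEH fall also passed with only the groups compared (edgeR adjusted p = 0.0484) and with batch as a covariate (edgeR adjusted p = 0.0261), and the WT BD10-2 call was also lost with the first library of each pair (edgeR adjusted p = 0.136). Within mice, Ptger3 was lower in the stimulated slice in 6 of 6 WT mice and 7 of 8 T41B mice. The WT BD10-2 call was also lost without any single one of Mouse1565, Mouse1571, Mouse1586 and Mouse1590, with edgeR adjusted p up to 0.175, and the T41B BD10-2 call without Mouse1557, Mouse1563 or Mouse1572, with edgeR adjusted p up to 0.157. Of 5 interneuron markers, 1 was called lower in each of these BD10-2 comparisons, Gad2 in WT and Vip in T41B mice. Of 6 hippocampal neuron markers, Neurod6 and Syt1 were called lower in both and Snap25 in T41B mice. Of 6 meningeal fibroblast markers, Col1a2 and Slc6a13 were called lower in both. With vehicle, Syt1 was called lower in WT mice and Neurod6 and Slc6a13 in T41B mice, and no interneuron marker was called. The interneuron sum was 244.3 to 279.4 CPM in WT BD10-2 sham and 187.2 to 225.8 CPM in WT BD10-2 stimulated slices. It overlapped between sham and stimulated slices in the other combinations. The summed neuron markers were 6023 to 6483 CPM in WT BD10-2 sham and 5315 to 5958 CPM in stimulated slices, and 5014 to 6403 against 4260 to 6059 CPM in T41B BD10-2 mice. The part of these markers in the values of Ptger3 was not tested.

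Ptger4 (EP4, which raises cyclic AMP) had log2 fold changes with stimulation of 0.61 in WT VEH slices (edgeR adjusted p = 0.186) and 0.68 in WT BD10-2 slices (edgeR adjusted p = 0.219), and of -0.22 and 0.03 in T41B VEH and BD10-2 slices. Its sham and stimulated values did not overlap in WT BD10-2 mice (1.03 to 2.30 against 2.84 to 3.35 CPM) and overlapped in the other combinations. Ptger1 (EP1, which acts through calcium) had log2 fold changes of 0.06 to 0.38, none called. Hpgd, the breakdown enzyme, had log2 fold changes of -0.43, -0.93, -1.07 and -0.67 in WT VEH, T41B VEH, WT BD10-2 and T41B BD10-2 slices, with edgeR adjusted p between 0.051 and 0.496, and none passed. The T41B BD10-2 fall passed without Mouse1563 (-0.89, edgeR adjusted p = 0.0472). In T41B VEH mice the sham slices held 2.25, 2.52, 2.18 and 3.10 CPM and the stimulated slices 0.9997, 1.59, 1.76 and 0.911 CPM, without overlap. Hpgd was lower in the stimulated slice in 12 of 14 mice. Ptger2 (EP2) averaged 0.192 to 0.422 CPM over the groups, with 0 to 11 counts per sample, and did not pass the filter on low counts, so it was not tested. Its values lay at 0.0625 to 0.296 CPM in T41B VEH sham slices and 0.3254 to 0.6245 CPM in T41B VEH stimulated slices, without overlap, and overlapped in the other combinations. It was higher in the stimulated slice in 10 of 14 mice.

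The second question was how the T41B mice differed from WT mice within each treatment and slice type. Ptger4 was higher in T41B mice in all 4 comparisons, and Ptgs2 and Ptges were higher in T41B mice in stimulated slices. In addition, Ptgs1 was called higher in T41B sham slices and Ptger3 lower in T41B mice given vehicle. Members called higher numbered 2 of 8 in VEH sham slices, 3 in VEH stimulated, 2 in BD10-2 sham and 3 in BD10-2 stimulated slices, where 5%, 4.74%, 4.31% and 8.19% of all tested genes were called higher. Members called lower numbered 1, 1, 0 and 0, against 1.24%, 1.05%, 1.14% and 2.36% of all genes.

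Ptger4 (ENSMUSG00000039942, GRCm38 chromosome 15, 5206661 to 5244187, minus strand) was the 1 member called in all 4 genotype comparisons. In VEH sham slices it lay at 1.48, 1.94, 2.89 and 2.77 CPM in WT mice and 4.88, 12, 6.75 and 8.61 CPM in T41B mice. In BD10-2 sham slices it lay at 2.17, 2.30 and 1.03 CPM in WT mice and 6.91, 11.2, 10.5, 7.09 and 6.73 CPM in T41B mice. The 2 genotypes overlapped in neither pair of groups, nor in stimulated slices, where WT slices held 2.25 to 4.24 CPM and T41B slices held 5.41 to 13.1 CPM over both treatments. The log2 fold change was 1.83 in VEH sham slices (edgeR adjusted p = 9.23e-05, SE 0.29), 2.18 in BD10-2 sham slices (edgeR adjusted p = 2.28e-05, SE 0.31), and 1.52 in BD10-2 stimulated slices (edgeR adjusted p = 0.000479, SE 0.29).

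In VEH stimulated slices the difference in Ptger4 was 0.99 (edgeR adjusted p = 0.0253, SE 0.27), and this call was lost with batch as a covariate (0.78, edgeR adjusted p = 0.141) and without Mouse1513, Mouse1522, Mouse1553 or Mouse1579. Within the batches that hold both genotypes, the difference on the log2(CPM + 1) scale was 0.59 to 1.93 in 4 batches for sham slices and 0.89 to 1.52 in 3 batches for stimulated slices. Ptger4 shares 82 exonic bases with Ttc33 on the opposite strand (17.3 to 32.1 CPM), and the strand setting of the counting was not given in the sources used here. Ttc33 was called only in the stimulation comparison of T41B VEH mice, and its genotype differences ran from -0.17 to 0.21 on the log2 scale. Gm15937, a processed pseudogene, also lies on the opposite strand and shares 1015 exonic bases with Ptger4. It held 0.425 to 1.42 CPM and was called in 0 comparisons, with genotype differences of -0.57 to -0.16.

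**Figure D3:**
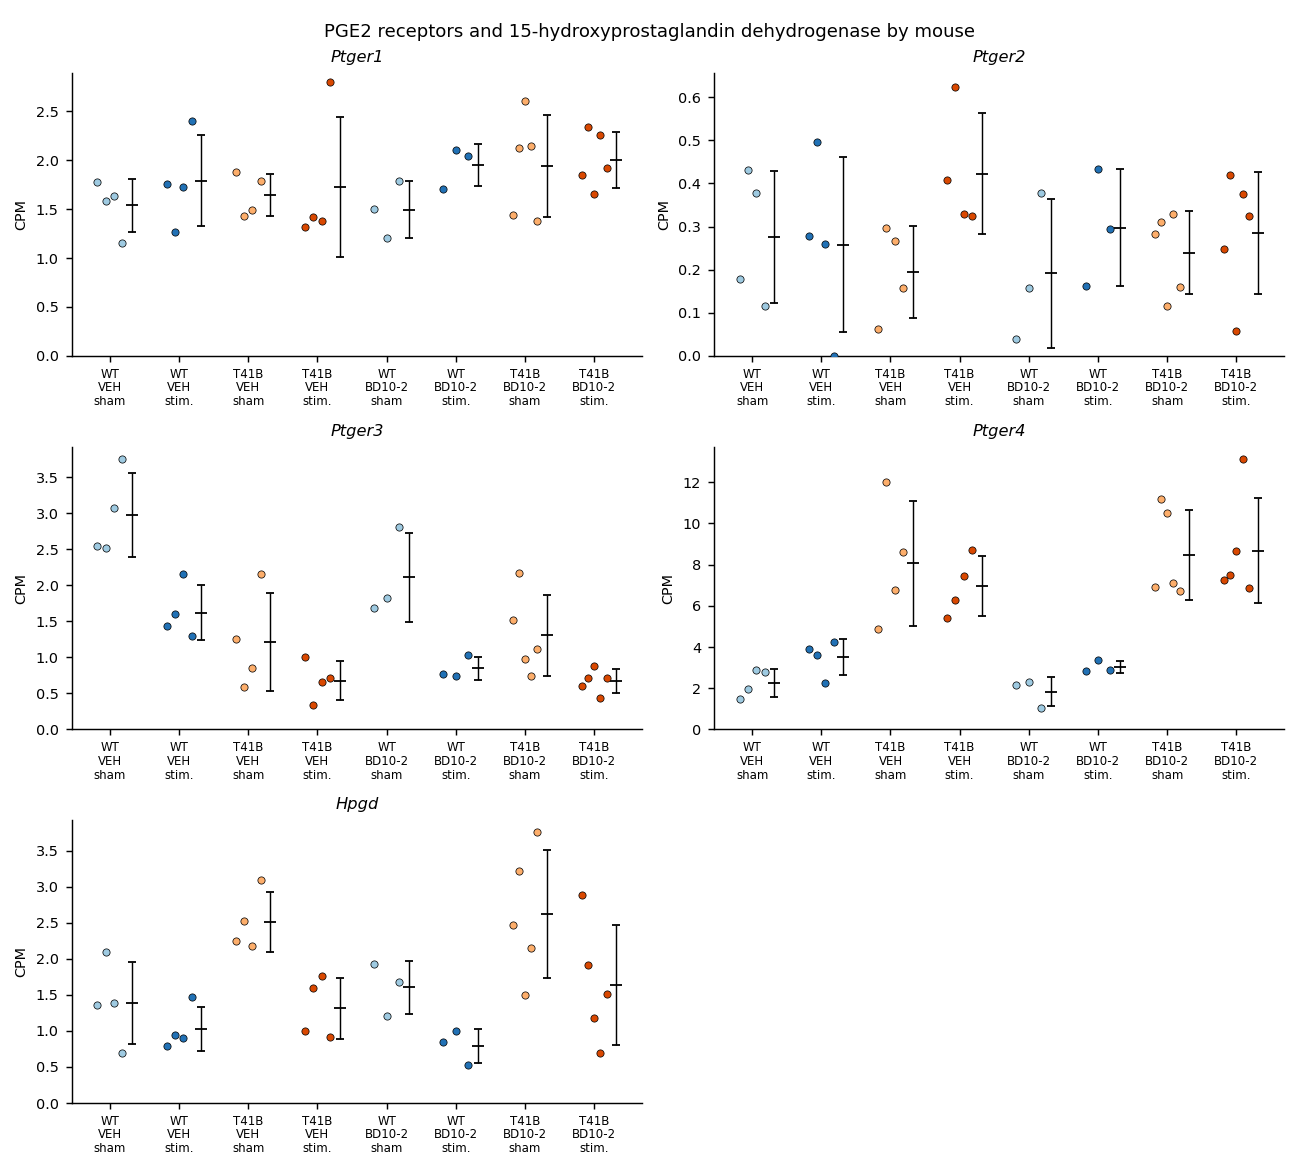
Level of the prostaglandin E2 receptors and Hpgd in CPM on linear axes from 0, with a point for each mouse and the group mean ± SD beside it. Ptger4 of T41B mice lies above that of WT mice in each pair of groups, Ptger3 is highest in WT VEH sham slices, and Ptger2 stays under 1 CPM.

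The microglial marker list also differed by genotype. Its members called higher in T41B mice numbered 4 of 5 in VEH sham, 2 in VEH stimulated, 3 in BD10-2 sham and 5 in BD10-2 stimulated slices, and none was called lower. At overlapping marker sums, WT VEH sham slices (163 to 215.5 CPM) held 1.48 to 2.89 CPM of Ptger4 and T41B VEH stimulated slices (142 to 197 CPM) held 5.41 to 8.72 CPM. These groups differ in both genotype and stimulation. The part of the microglial markers in the genotype differences of Ptger4 and Ptgs1 was not tested.

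**Figure D4:**
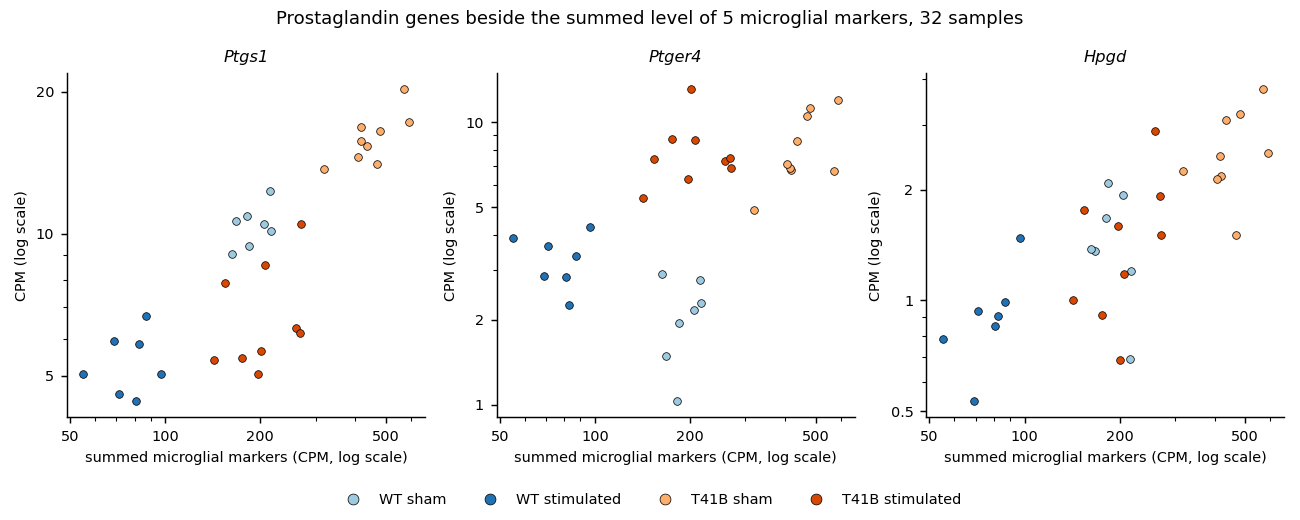
CPM of Ptgs1, Ptger4 and Hpgd in each of the 32 samples against the summed CPM of 5 microglial markers, both on log axes. WT sham and T41B stimulated slices, which differ in both genotype and stimulation, overlap along the horizontal axis. There Ptger4 is higher and Ptgs1 mostly lower in the T41B stimulated slices.

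For Ptgs2, the genotypes did not differ past the threshold in sham slices and differed in stimulated slices. The log2 difference between T41B and WT sham slices was -0.14 with vehicle (95% interval -0.80 to 0.53, edgeR adjusted p = 0.846) and -0.26 with BD10-2 (interval -0.93 to 0.42, edgeR adjusted p = 0.733). In stimulated slices it was 1.87 with vehicle (edgeR adjusted p = 0.000403, SE 0.33) and 2.02 with BD10-2 (edgeR adjusted p = 0.000243, SE 0.36). Within the 3 batches that hold stimulated slices of both genotypes it was 1.70 to 1.82 on the log2(CPM + 1) scale.

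For Ptges the log2 difference in sham slices was 0.44 with vehicle (edgeR adjusted p = 0.468, SE 0.34) and 0.56 with BD10-2 (edgeR adjusted p = 0.365, SE 0.33). In stimulated slices it was 1.23 with vehicle (edgeR adjusted p = 0.00512, SE 0.28) and 1.28 with BD10-2 (edgeR adjusted p = 0.00316, SE 0.29), and 0.87 to 1.22 within 3 batches on the log2(CPM + 1) scale. The last of these was lost when only the groups compared were fitted (1.26, edgeR adjusted p = 0.0767).

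Whether the response itself differed by genotype was tested with an interaction. Within each treatment no gene was called by edgeR, with 1683 genes at an unadjusted p under 0.05 with vehicle and 846 with BD10-2, while DESeq2 called 4 and 20 genes. Ptgs2 had the largest interaction of the members, 2.01 with vehicle (edgeR adjusted p = 0.313, SE 0.47) and 2.27 with BD10-2 (edgeR adjusted p = 0.252, SE 0.49). The BD10-2 interaction passed without Mouse1592 (2.46, edgeR adjusted p = 0.00411) and with DESeq2 (2.29, adjusted p = 0.0115). The mean of both interactions, a contrast added after the data had been seen, called 38 genes, or 0.195% of those tested, and Ptgs2 was the 1 member among them.

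In that contrast the stimulation response of Ptgs2 was 2.14 greater in T41B mice on the log2 scale (edgeR adjusted p = 0.00557, SE 0.34), with a range of 1.97 to 2.34 over 24 alternatives, all of which passed. Ptges had 0.75 (edgeR adjusted p = 0.44, SE 0.31) and Ptger4 -0.74 (edgeR adjusted p = 0.397, SE 0.28), neither called. The paired libraries labelled as stimulated for Mouse1592 held 90.7 and 210 CPM of Ptgs2 and 918 and 1937 CPM of Thy1. With the first library alone of all 4 equal-label pairs, not of this mouse only, the mean interaction was 2.22, and with the second alone it was 2.10.

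**Figure D5:**
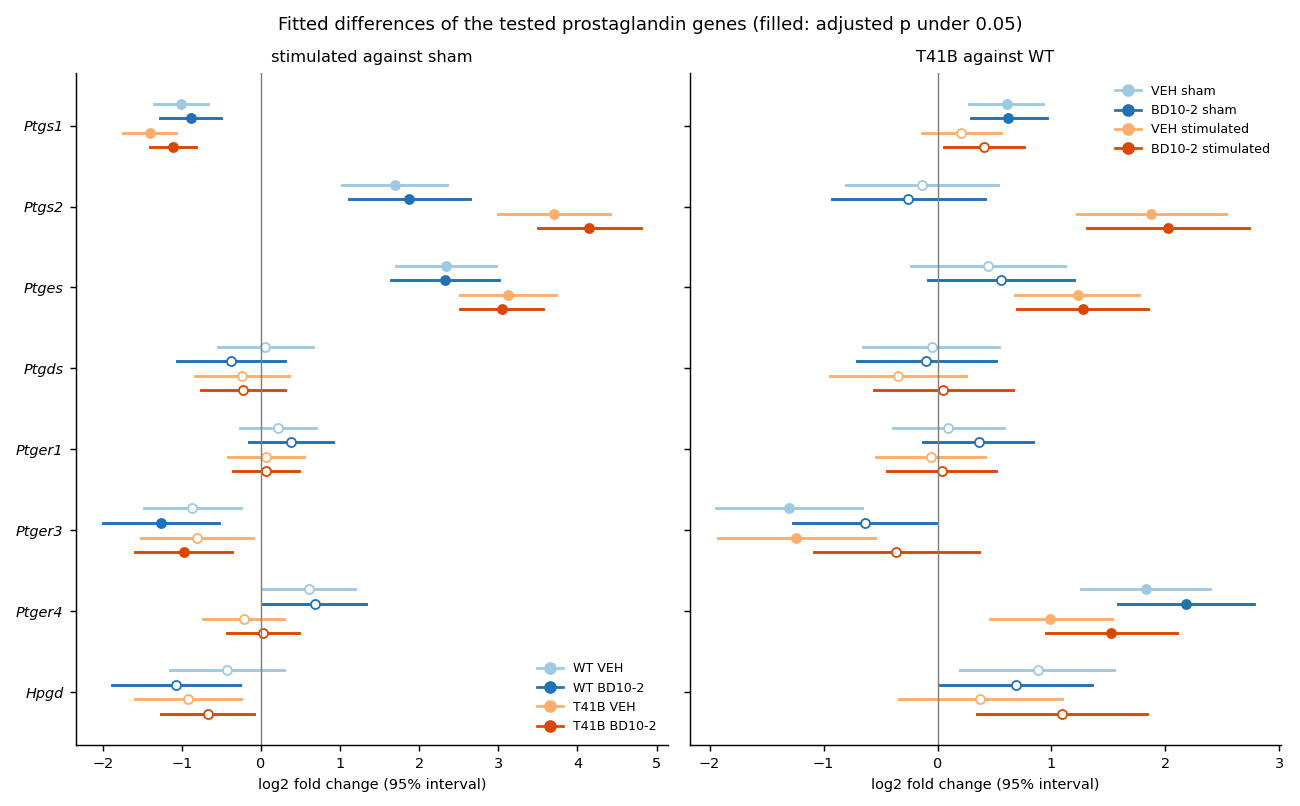
Log2 fold changes of the 8 tested members with 95% intervals for stimulation (left) and genotype (right), with filled points where the edgeR adjusted p was under 0.05. The Ptgs2 intervals of WT and T41B mice are apart for stimulation, and the Ptger4 points are all filled for genotype.

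Ptgs1 was 1.52-fold higher in T41B mice in VEH sham slices (log2 fold change 0.61, edgeR adjusted p = 0.0245, SE 0.17) and 1.54-fold higher in BD10-2 sham slices (0.62, edgeR adjusted p = 0.0271, SE 0.17). In stimulated slices the differences were 0.21 (edgeR adjusted p = 0.6, SE 0.18) and 0.41 (edgeR adjusted p = 0.157, SE 0.18). Within batches the sham difference was 0.30 to 0.83 on the log2(CPM + 1) scale in 4 batches. With vehicle the call was lost with batch as a covariate (0.42, edgeR adjusted p = 0.359) and without Mouse1509, Mouse1513, Mouse1522, Mouse1551 or Mouse1553, and with BD10-2 it was lost without Mouse1565, Mouse1571 or Mouse1590 and with the second library of each pair.

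Ptger3 was lower in T41B mice given vehicle, by a log2 fold change of -1.30 in sham slices (edgeR adjusted p = 0.0128, SE 0.32) and -1.24 in stimulated slices (edgeR adjusted p = 0.0302, SE 0.35). With BD10-2 it was -0.64 (edgeR adjusted p = 0.281, SE 0.32) and -0.36 (edgeR adjusted p = 0.621, SE 0.37). Both vehicle calls were lost with batch as a covariate (edgeR adjusted p = 0.137 and 0.125), with only the groups compared (0.0895 and 0.0693), and without Mouse1551 or Mouse1553. That in stimulated slices was also lost without Mouse1513 or Mouse1522. Ptger3 was lower in T41B mice in 4 of 4 batches for sham slices and in 3 of 3 for stimulated slices. Of the interneuron markers, 3 of 5 were called lower in T41B mice in BD10-2 sham slices, 2 in VEH stimulated slices and 0 in the other genotype comparisons. In VEH sham slices their sum was 215.5 to 291.7 CPM in WT and 170.5 to 211.3 CPM in T41B mice. The sums of the genotypes overlapped only in BD10-2 stimulated slices. Of the hippocampal neuron markers, Syt1 was called lower in T41B mice in VEH sham, Snap25 in VEH stimulated and Neurod6 in BD10-2 sham slices, and 0 of 6 in BD10-2 stimulated slices. The part of both lists in these differences of Ptger3 was not tested.

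Hpgd had log2 differences of 0.88 in VEH sham slices (edgeR adjusted p = 0.137, SE 0.35), 0.37 in VEH stimulated, 0.69 in BD10-2 sham and 1.09 in BD10-2 stimulated slices (edgeR adjusted p = 0.0643, SE 0.38), none of which passed with edgeR. The last passed with DESeq2 (adjusted p = 0.0351), with the second library of each pair (edgeR adjusted p = 0.0416) and without Mouse1572 (edgeR adjusted p = 0.0217). It was smallest with batch as a covariate (0.71, edgeR adjusted p = 0.375). In the 1 batch with BD10-2 stimulated slices of both genotypes, Hpgd averaged 0.934 CPM in T41B and 0.922 CPM in WT mice, and in the 2 batches with VEH stimulated slices of both the differences in log2(CPM + 1) ran from -0.37 to 0.07. In sham slices T41B mice were higher in 4 of 4 batches, by 0.31 to 1.27 on that scale. VEH sham slices held 0.693 to 2.09 CPM in WT mice and 2.18 to 3.10 CPM in T41B mice, without overlap, and the other groups of Hpgd averaged 0.792 to 2.62 CPM. Ptger1 (ENSMUSG00000019464) averaged 1.49 to 2.00 CPM in the 8 groups, with genotype differences from -0.06 to 0.36. What the unknown strand setting means for the counts of Ptger1 is not reported here.

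The third question was whether BD10-2 changed any of these genes. Neither a member nor any other gene was called by edgeR, which is 0% of the 19478 genes in each of the 4 comparisons. At an unadjusted p under 0.05 there were 374 genes in WT sham, 1093 in WT stimulated, 431 in T41B sham and 759 in T41B stimulated slices, and DESeq2 called 25 genes in WT stimulated slices, none of them a member, and 0 in the other comparisons. For Ptgs2 the log2 difference between BD10-2 and vehicle was 0.10 in WT stimulated slices (95% interval -0.59 to 0.78) and 0.24 in T41B stimulated slices (interval -0.36 to 0.84). For Ptges it was 0.28 (interval -0.30 to 0.86) and 0.33 (interval -0.17 to 0.83).

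The member nearest to a treatment difference was Ptger3 in WT stimulated slices, at -0.91 (SE 0.36, unadjusted p = 0.0175, edgeR adjusted p = 0.877), where the values of 0.744 to 1.03 CPM with BD10-2 and 1.29 to 2.16 CPM with vehicle did not overlap. Each batch holds a single treatment, so treatment and batch cannot be told apart. The response to stimulation did not differ by treatment past the threshold for any gene by edgeR, with 337 genes at an unadjusted p under 0.05 in WT mice and 526 in T41B mice, and DESeq2 called 0 and 1 gene. For Ptgs2 that interaction was 0.18 in WT mice (95% interval -0.81 to 1.17) and 0.45 in T41B mice (interval -0.42 to 1.32).

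The rest of the prostanoid pathway was taken as a list. Of 26 further genes for arachidonic acid release, synthesis, reception, transport and breakdown, 23 were tested. With stimulation, 2 were called higher and 0 lower in WT VEH, 3 and 2 in T41B VEH, 0 and 0 in WT BD10-2, and 2 and 1 in T41B BD10-2 slices. Among all tested genes, 8.21%, 11.7%, 6.29% and 13.3% were called higher and 4.1%, 9.83%, 2.58% and 9.52% lower, in the same order. Their median log2 fold change was 0.09, -0.09, 0.04 and 0.02, beside -0.01, -0.05, -0.01 and -0.04 for all tested genes.

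Upstream of the cyclooxygenases, Pla2g4a, the cytosolic phospholipase that releases arachidonic acid, rose in T41B mice from 2.13 ± 0.455 to 4.77 ± 2.01 CPM with vehicle (SD, n = 4; log2 fold change 1.16, edgeR adjusted p = 0.013). With BD10-2 it went from 2.59 ± 0.486 to 5.25 ± 3.15 CPM (SD, n = 5; 1.02, edgeR adjusted p = 0.0123). Pla2g4e, a related phospholipase, rose in T41B VEH slices (0.76, edgeR adjusted p = 0.0187), and the calcium-independent Pla2g6 fell slightly in T41B BD10-2 slices (-0.28, edgeR adjusted p = 0.0473). Ptgir, the prostacyclin receptor, rose in 3 of the 4 combinations, by 2.08 in WT VEH, 3.17 in T41B VEH and 2.52 in T41B BD10-2 slices (edgeR adjusted p = 0.0287, 0.00073 and 0.000647). Its level stayed low, with a highest group mean of 1.23 ± 0.672 CPM (SD, n = 5). Ptges3, the cytosolic prostaglandin E synthase, which is also the chaperone p23, rose by 0.31 in WT VEH slices (edgeR adjusted p = 0.0419). Ptgr1, a reductase that inactivates prostaglandins and leukotriene B4, fell in T41B VEH slices (-1.14, edgeR adjusted p = 0.018).

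In the genotype comparisons, 3, 2, 1 and 2 of the 23 genes were called higher and 0 lower, in VEH sham, VEH stimulated, BD10-2 sham and BD10-2 stimulated slices, where 5%, 4.74%, 4.31% and 8.19% of all genes were called higher. Tbxas1, thromboxane A synthase, was higher in T41B mice in all 4, by log2 fold changes of 1.13 to 1.79, and fell with stimulation in T41B VEH slices (-0.96, edgeR adjusted p = 0.00225). Hpgds, the haematopoietic prostaglandin D synthase of microglia, was higher in 3 of the 4, by 1.04, 1.08 and 0.96. Pla2g5, a secreted phospholipase, was higher in VEH sham slices (2.42, edgeR adjusted p = 0.0182), from 0.185 ± 0.139 CPM in WT to 1.02 ± 0.419 CPM in T41B mice (SD, n = 4). The microglial markers named above moved in the same directions as Tbxas1, and their part in it was not tested.

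The lipoxygenase arm turns the same arachidonic acid into leukotrienes. Of 8 tested genes among 11, 0 were called in WT VEH, 4 lower and 1 higher in T41B VEH, 2 lower in WT BD10-2, and 4 lower and 1 higher in T41B BD10-2 slices. Of all genes, 4.1%, 9.83%, 2.58% and 9.52% were called lower in these comparisons and 8.21%, 11.7%, 6.29% and 13.3% higher. Alox5ap, which presents arachidonic acid to 5-lipoxygenase, fell by 1.34 on the log2 scale in T41B VEH, by 1.23 in WT BD10-2 and by 0.73 in T41B BD10-2 slices, and Ltc4s, leukotriene C4 synthase, fell by 1.61, 2.02 and 1.36 in the same groups. Lta4h, which makes leukotriene B4, fell by 0.36 in T41B VEH and by 0.22 in T41B BD10-2 slices, the receptor Cysltr1 fell by 1.93 in T41B VEH and Alox5, 5-lipoxygenase itself, fell by 1.59 in T41B BD10-2 slices. The median log2 fold change of the 8 genes was -0.36, -0.79, -0.66 and -0.39 in WT VEH, T41B VEH, WT BD10-2 and T41B BD10-2 slices. The gene that rose was Cysltr2, a cysteinyl leukotriene receptor, by 1.47 in T41B VEH and 1.36 in T41B BD10-2 slices. In T41B against WT mice, 2, 0, 2 and 3 of the 8 were called higher and 0 lower, in VEH sham, VEH stimulated, BD10-2 sham and BD10-2 stimulated slices, and these were Alox5, Alox5ap and Ltc4s. The shares of all genes called higher were 5%, 4.74%, 4.31% and 8.19%. The microglial markers were likewise called lower with stimulation and higher in T41B mice, and their part was not tested.

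As a description over the 32 samples, which share the same groups, the genes with the pattern most like each member among 16192 genes averaging at least 1 CPM were listed by Pearson r of log2(CPM + 1). For Ptgs2 they were Slc11a2, Procr and Mmp13, each at r = 0.98, and for Ptges Birc3, Helz2 and Mmp13, each at 0.98. Ptgs1 was nearest to Cx3cr1 (0.96), Vsir (0.95) and Rasal3 (0.95), Ptger4 to Runx1, Cd74 and Itgax (each 0.92), and Hpgd to Pik3cg (0.85), Was (0.83) and Csf3r (0.81). Ptger3 was nearest to Erbb4 (0.89), Plcxd3 (0.88) and Lpgat1 (0.88). Ptgds (Grtp1, Olig2 and Nkd1, up to 0.73) and Ptger1 (Pknox1, Gpr137b-ps and Hs6st1, up to 0.64) had no neighbour as close.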

How the data were processed

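Hippocampal slice RNA (200 ng of total RNA, ribosomal depletion, stranded kit, per the labels' protocols) was sequenced, and the authors deposited RSEM expected counts per gene, which are not scaled between libraries. The submitters' processing notes name cutadapt 1.8.1, STAR 2.7.6a, RSEM 1.3.1, featureCounts 1.6 and SAMtools 1.11 with GRCm38.p6 and mm10. The annotation release and strand setting are not given in the sources used here. Positions, exon lengths and overlaps come from GENCODE M21, and symbols matched 55154 of 55421 identifiers.

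Expected counts were rounded, and libraries with equal labels (4 pairs) were added. Genes passing edgeR's filterByExpr (minimum count 10) were scaled by TMM (factors 0.91 to 1.063) and tested with edgeR 4.0.16 (R 4.3.3) in 1 fit of 8 group coefficients. P-values were adjusted by Benjamini-Hochberg over 19478 genes. The SE was derived from the F statistic, and 95% intervals use a normal quantile, so they are slightly narrower than the test implies. The procedure was tested on simulated data. CPM uses TMM-adjusted library sizes. The 16 comparisons planned were stimulation, genotype and treatment within each combination of the other factors, and 4 interactions, with 1 contrast added later. All 9 genes are named. The other genes named are those of a fixed pathway list that were called in a stimulation or genotype comparison, and the 3 nearest patterns of each member. Cell type markers, Thy1 and genes overlapping Ptger4 are named where a value is given beside them. The microglial list was fixed with 1 marker more than the 5 used, which is not reported here. Members and lists were chosen with earlier results of these data known. Whether equal-label libraries came from separate slices is not stated, so they were added to give a single sample for each mouse and stimulation. The reported fit had no mouse term, so both slices of the 14 mice with a pair entered as separate samples. Only the alternative with the mouse as a block used the pairing.

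Slices are paired by the mouse numbers in the labels: deviations of both slices of a mouse from their group means correlated at a mean of 0.205 (over 0.1 in 12 of 14 mice), and at -0.0552 over 52 pairs of different mice. Alternatives were RLE size factors, no filter, single libraries of each pair, each mouse left out, only the groups compared, batch as a covariate, the mouse as a block, and DESeq2 1.42.0. Batch as a covariate was fitted for the stimulation and genotype comparisons only.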

Additional observations from a re-analysis of the deposited data

Results flagged for a closer look

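Of 54 combinations of member and group with 4 or 5 mice, 3 held a mouse far from the others by Dixon's criterion, which chance gives in about 1 of 20 groups. These were Ptgs1 at 7.87 CPM in the stimulated slice of T41B VEH Mouse1553 (next value 5.47 CPM), Ptger1 at 2.80 CPM in the stimulated slice of T41B VEH Mouse1579 (next value 1.42 CPM), and Ptger4 at 13.1 CPM in the stimulated slice of T41B BD10-2 Mouse1572 (next value 8.66 CPM).

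The response of Ptgs2 to stimulation differed between genotypes, by 2.14 on the log2 scale over both treatments (edgeR adjusted p = 0.00557, SE 0.34), in a contrast chosen after seeing the data. The planned interactions within each treatment were not called for Ptgs2 (edgeR adjusted p = 0.313 with vehicle and 0.252 with BD10-2).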

How the results depend on the processing

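No called direction reversed under any alternative. The calls of Ptgs2 and Ptges with stimulation, of Ptgs1 with stimulation outside WT BD10-2 slices, of Ptger4 with genotype in sham slices and in BD10-2 stimulated slices, and of Ptgs2 and (with vehicle) Ptges with genotype in stimulated slices were kept under each alternative run. Leaving out each mouse in turn gave 2 to 3 members called for stimulation in WT BD10-2 slices (4 in the reported fit), 1 to 3 for genotype in VEH sham slices (3), 2 to 4 in VEH stimulated slices (4), 1 to 2 in BD10-2 sham slices (2), and 0 to 1 for the genotype by stimulation interaction with BD10-2 (0). Batch as a covariate gave 1 member for genotype in VEH sham slices, with 352 genes called in all against 1215, and 2 in VEH stimulated slices. The second library of each pair, an alternative chosen after seeing the data, gave 1 in BD10-2 sham slices, and DESeq2 gave 1 for the BD10-2 interaction. The causes were not tested. Among all genes, leaving out a mouse moved the stimulation calls from 2397, 4197, 1727 and 4453 down to as few as 1238, 2648, 758 and 3195 (WT VEH, T41B VEH, WT BD10-2, T41B BD10-2), and the genotype calls from 1215, 1128, 1062 and 2056 down to 556, 678, 484 and 1055 (VEH sham, VEH stimulated, BD10-2 sham, BD10-2 stimulated), or up to 2066 in VEH sham slices. Fitting only the groups compared gave 1581 and 2582 genes for stimulation with vehicle, and 537, 1731 and 1240 for genotype in VEH sham, BD10-2 sham and BD10-2 stimulated slices. The contrast over both treatments went from 38 genes to 8 with the first and 132 with the second library of each pair, to 151 with DESeq2, and to between 10 and 201 with a mouse left out, and Ptgs2 was called in each.

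With the mouse as a replicate block, stimulation called 4, 3, 3 and 3 members in WT VEH, T41B VEH, WT BD10-2 and T41B BD10-2 slices, against 3, 3, 4 and 4, and changed no call other than those of Ptger3. It gave 3873 genes in WT VEH slices, and 19 for the contrast over both treatments, where Ptgs2 had 2.07 (edgeR adjusted p = 0.0443). It was not possible for genotype or treatment, which differ between mice. Hpgd in T41B VEH slices (-0.93, edgeR adjusted p = 0.051) passed with DESeq2 (-0.91, adjusted p = 0.0444), with only the groups compared (-0.93, edgeR adjusted p = 0.0465), with batch as a covariate (-0.95, edgeR adjusted p = 0.0499) and without Mouse1553. In T41B BD10-2 slices it passed only without Mouse1563 (-0.89, edgeR adjusted p = 0.0472), of 14 alternatives. Ptger3, Hpgd and Ptger1 had the lowest median counts per sample of the members tested, at 21, 26 and 33.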
